A study of Mus musculus with 18 samples.

Results

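The class I, IIb and IV histone deacetylases were examined in the dorsal spinal cord of mice that expressed a control protein or HDAC4 and received an inflammatory or a control injection. The genes were Hdac1, Hdac2, Hdac3 and Hdac8 (class I), Hdac6 and Hdac10 (class IIb) and Hdac11 (class IV). They were chosen by gene name, and all 7 had a row in each of the 3 deposited tables, 1 per vector, which list 34579 loci and 18182 genes that stand alone in a row. Where a name had several rows, the row with the highest mean over the 6 groups was read.

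The study asked how nuclear HDAC4, a class IIa deacetylase, bears on gene expression in persistent inflammatory pain. C57BL/6 mice (C57BL/6N according to the methods) aged 3 months received intraspinal rAAV-LacZ, rAAV-HDAC4 wt or rAAV-HDAC4 3SA, where 3SA is an HDAC4 mutant that stays in the nucleus, and an intraplantar injection of saline or of Complete Freund's adjuvant (CFA, which inflames the paw). RNA of the dorsal spinal cord, segments L3 to L5, was sequenced 24 h after the paw injection in 6 groups of 3 mice. All 6 groups therefore carried a virus, a spinal injection and a paw injection, and no group of untouched mice was analysed here. The viruses had serotype 1/2 capsids, encoded Flag-tagged proteins and were injected into the dorsal horn on both sides, so that the tissue mixed transduced and untransduced cells of many types. The labels give no sex. The study used male and female mice and was done mostly in males, and the sex of the sequenced mice is not given in the sources used here. Levels are given as FPKM (fragment counts divided by exon length and by library size), a unit that corrects for gene length and lets levels of different genes be compared. The tables hold 1 FPKM value per group, estimated over its 3 mice. The authors' own tests of CFA against saline were not used. Values per mouse, which a test would need, are not given, so differences carry no replicate error or test here, and each is described by its size beside the share of all loci that differ as much. The methods state only a minimum read number for the sequencing, and the tables do not show the depth of each library.

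Histone deacetylases remove acetyl groups from lysines and oppose the acetyltransferases. Class I, II and IV enzymes depend on zinc, while the sirtuins of class III use NAD. HDAC1 and HDAC2 are the catalytic subunits of the NuRD, Sin3 and CoREST corepressor complexes, HDAC3 works in the NCoR complex, and HDAC8 acts on cohesin. HDAC6 is a cytoplasmic deacetylase of tubulin, HDAC10 deacetylates polyamines, and HDAC11 removes long fatty acyl groups from lysines. Class IIa enzymes such as HDAC4 have little catalytic activity of their own and recruit complexes that hold HDAC3.

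The sequences that bear on how the values are read are the coding region of Hdac1 with its processed copy and promoters of members that differ in CpG content. TopHat aligned reads of 50 bases. In the GENCODE M21 transcripts (GRCm38), the processed pseudogene Gm10093, on chromosome 17 from 78491582 to 78493025, was 99.38% identical to the Hdac1 transcript over 1444 bases. It differed at 9 of the 1444 coding bases compared, and 6 of these lie in the 90 bases shown here, coding bases 393 to 482 of Hdac1, 5′ to 3′, with the differing bases in capitals.
Hdac1: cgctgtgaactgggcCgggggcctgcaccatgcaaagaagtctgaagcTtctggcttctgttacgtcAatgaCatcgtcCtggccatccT
Gm10093: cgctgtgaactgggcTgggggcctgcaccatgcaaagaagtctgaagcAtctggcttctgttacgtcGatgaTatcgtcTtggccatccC
Of the 1989 stretches of 50 bases in the Hdac1 transcript, 1121 (56.4%) stood in Gm10093 letter for letter, and 1167 (58.7%) stood in at least 1 of 3 such copies (Gm10093, AC125456.1, Gm4864). How reads shared with these copies were assigned is not given in the sources used here, so the level of Hdac1 is uncertain by an unknown amount.

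Promoter windows of 300 bases around the RefSeq start, all but the last 50 upstream of it, were found for 4 members in RefSeq (GRCm38.p6). CpG dinucleotides numbered 36 in the window of Hdac2, 22 in that of Hdac11, 20 in that of Hdac6 and 6 in that of Hdac8, against a median of 7 over 32851 promoters. Hdac2, Hdac6 and Hdac8 had the same order by CpG as by level, described next. Hdac11, highest by level, was below Hdac2 by CpG. Hdac2, at chr10:36974294-36974593 (plus strand), and Hdac6, at chrX:7947840-7948139 (minus strand), are shown because their RefSeq and GENCODE starts coincide and both are CpG-rich, whereas the RefSeq starts of Hdac11 and Hdac8 lie inside their first GENCODE exon. The sequences run 5′ to 3′ along the gene, with CpG dinucleotides in capitals.
Hdac2: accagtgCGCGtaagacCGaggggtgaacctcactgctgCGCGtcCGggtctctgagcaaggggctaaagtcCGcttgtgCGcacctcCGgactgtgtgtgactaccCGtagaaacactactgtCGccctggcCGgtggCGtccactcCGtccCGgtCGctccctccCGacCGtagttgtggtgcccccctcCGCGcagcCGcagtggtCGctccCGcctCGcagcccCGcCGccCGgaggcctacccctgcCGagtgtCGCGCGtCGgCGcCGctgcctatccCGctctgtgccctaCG
Hdac6: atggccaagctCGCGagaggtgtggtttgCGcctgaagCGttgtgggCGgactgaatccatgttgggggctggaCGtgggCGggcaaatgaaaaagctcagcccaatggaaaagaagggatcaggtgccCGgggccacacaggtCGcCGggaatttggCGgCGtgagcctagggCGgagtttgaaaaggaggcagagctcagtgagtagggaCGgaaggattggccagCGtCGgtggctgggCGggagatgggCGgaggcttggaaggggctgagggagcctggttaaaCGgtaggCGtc
The GC box (GGGCGG, either strand) matched 5 times in the Hdac6 window, 1 time each in those of Hdac2 and Hdac11 and 0 times in that of Hdac8, and 35.7% of all promoters held it. CCAAT (either strand) matched 2 times each for Hdac6 and Hdac8, 1 time for Hdac11 and 0 times for Hdac2, against 37.4% of promoters with a match. The 2 Hdac8 matches overlap in 1 stretch that reads the same on both strands. TATAAA (either strand) was found 1 time in the Hdac8 window, on the strand opposite to the gene. It was in none of the other 3 windows, against 13.6% of promoters. These matches describe letters, not binding.

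Hdac11 was by far the most abundant member. Its level, on chromosome 6 from 91156665 to 91174692 (plus strand, 10 exons), was 241 FPKM in LacZ mice given saline and 244 FPKM in those given CFA. With HDAC4 wt it was 229 FPKM in the saline group and 207 FPKM in the CFA group. The corresponding levels with HDAC4 3SA were 244 and 216 FPKM. The LacZ groups and the HDAC4 3SA saline group lay closest together, and both CFA groups with HDAC4 were lowest. The mean of 229.9 FPKM placed Hdac11 at rank 267 of the 18182 singly named genes, above 98.5% of them. It made up 64.3% to 67.9% of the summed FPKM of the 7 members, and 55.1% to 59.7% of the sum over these and the 4 class IIa genes.

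The row of Hdac11 shares sequence with an antisense gene. Gm44002, an unspliced minus-strand gene from 91173425 to 91174018, lies wholly inside exon 10 of Hdac11, beyond its last coding base, and covers 22.4% of the 2653 exon bases. It was listed at 175 to 211 FPKM, 0.818 to 0.865 times the level of Hdac11 in the same group. The library was strand-specific, but the strand setting of the counting is not given in the sources used here, so reads of the 2 genes cannot be told apart. With all reads of Gm44002 given to Hdac11, a setting chosen after seeing the data, Hdac11 would be at 245.7 to 291.2 FPKM and its mean share of the 7 members would be 70.2% in place of 66.5%.

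Among the class I enzymes, Hdac2 was highest. Hdac2, on chromosome 10 from 36974544 to 37001889 (plus strand, 14 exons), had 41.7 and 39.5 FPKM in saline- and CFA-treated LacZ mice, 41.5 and 39.0 FPKM with HDAC4 wt, and 41.5 and 36.7 FPKM with HDAC4 3SA. All 3 saline groups were above all 3 CFA groups, and the saline values were nearly identical. Hdac3, on chromosome 18 from 37935844 to 37955016 (minus strand, 15 exons), was the most even member. Its values after saline and CFA were 32.5 and 33.4 FPKM with LacZ, 31.1 and 30.4 FPKM with HDAC4 wt, and 31.5 and 31.8 FPKM with HDAC4 3SA. The log2 range of Hdac3 over the 6 groups was 0.13, the narrowest of the 7. In the tables Hdac3 carried the same locus interval as its neighbours Rell2 (32.3 to 55.9 FPKM) and Fchsd1 (13.8 to 20.0 FPKM).

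Hdac1, on chromosome 4 from 129516104 to 129542713 (minus strand, 14 exons), is the close paralog of Hdac2 and stood below it in every group. LacZ mice had 15.9 FPKM with saline and 17.5 FPKM with CFA. HDAC4 wt mice had 20.2 and 22.0 FPKM, and HDAC4 3SA mice had 19.0 and 20.4 FPKM, in the same order. Every group with HDAC4 was above both LacZ groups, and the log2 range of 0.46 was the widest of the 7. Hdac8, an X-linked gene from 102284639 to 102505359 (minus strand, 11 exons), showed the opposite arrangement. It was at 10.2 and 9.12 FPKM in saline- and CFA-treated LacZ mice, at 8.35 and 8.02 FPKM with HDAC4 wt, and at 8.44 and 8.16 FPKM with HDAC4 3SA. Both LacZ groups were above all 4 groups with HDAC4. Summed over the 4 class I genes, the level spanned only 97.1 to 101.1 FPKM.

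The class IIb genes were among the lowest. Hdac6, X-linked from 7930120 to 7947889 (minus strand, 29 exons), had 11.6 and 11.8 FPKM in saline- and CFA-treated LacZ mice. Its values were 11.6 and 10.8 FPKM with HDAC4 wt, and 11.5 and 10.6 FPKM with HDAC4 3SA. The 3 saline groups were nearly level, and the CFA groups with HDAC4 were lowest. A second row of Hdac6 at the same interval held 0.232 to 0.447 FPKM and was not used. Hdac10, on chromosome 15 from 89123307 to 89128700 (minus strand, 20 exons), was the lowest member in every group. It had 3.86 and 4.19 FPKM after saline and CFA with LacZ, 5.31 and 4.70 FPKM with HDAC4 wt, and 4.20 and 4.96 FPKM with HDAC4 3SA. Both LacZ values were below all 4 values with HDAC4, by a narrow margin for the HDAC4 3SA saline group.

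**Figure D1:**
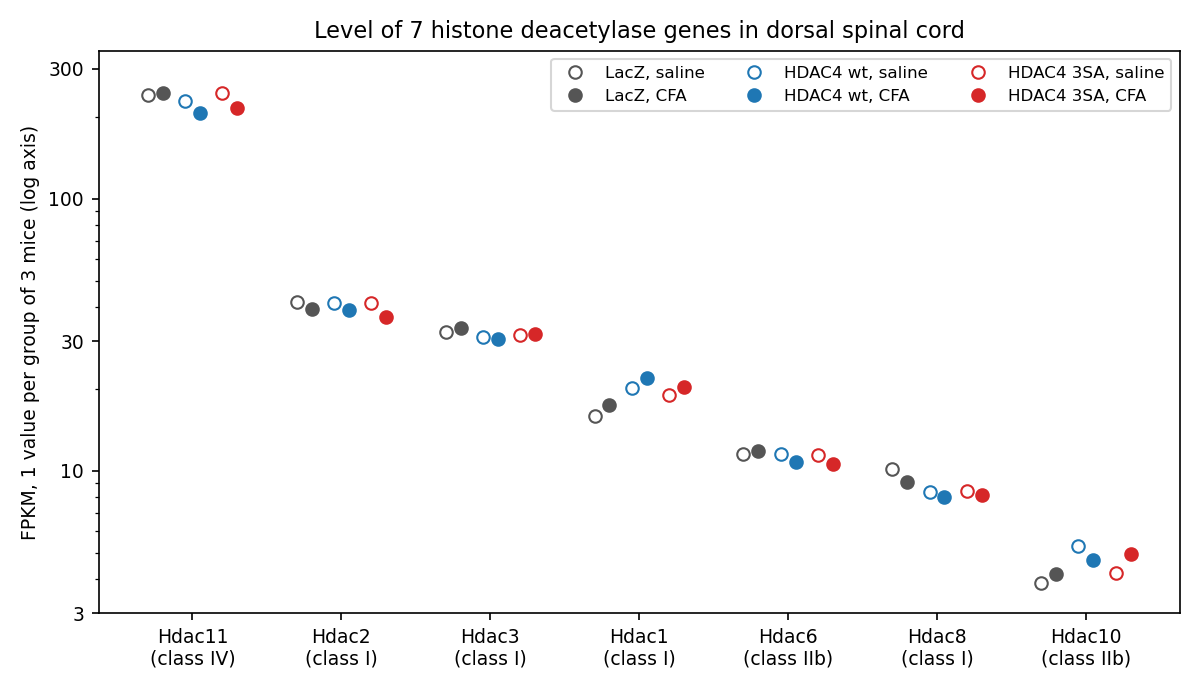
FPKM of each member on a log axis, 1 point per group of 3 mice, with open points for saline, filled points for CFA and a colour per vector. The order from Hdac11 (206.5 to 244.0 FPKM) to Hdac10 (3.86 to 5.31 FPKM) is the same in all 6 groups, and no error bars are drawn because the files hold 1 value per group.

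The members kept 1 order in 6 of 6 groups, namely Hdac11, Hdac2, Hdac3, Hdac1, Hdac6, Hdac8 and Hdac10, as the plot of levels shows. The ranges over groups of neighbours in that order did not overlap. Hdac6 and Hdac8 came closest, with a lowest Hdac6 value of 10.6 FPKM and a highest Hdac8 value of 10.2 FPKM, although spread between mice is unknown and such neighbours cannot be separated beyond it. Hdac11 exceeded Hdac2 by 5.29-fold to 6.17-fold within a group. Without Hdac11, the summed level of the other 6 genes was 112.7 to 118.0 FPKM, of which Hdac2 held 32.6% to 36.0%, Hdac3 26.3% to 28.9% and Hdac1 13.8% to 19.1%.

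The first comparison asked whether inflammation of the paw went with a change of these genes. None of the 7 members differed between CFA and saline by more than 0.5 on the log2 scale in LacZ mice, against 5.67% of the 16854 loci with at least 1 FPKM in both groups. The count was also 0 of 7 with HDAC4 wt, where 11.4% of loci passed, and 0 of 7 with HDAC4 3SA, where 12.1% passed. Against such shares, a count of 0 among 7 is near the background. Log2 ratios were taken after adding 0.1 FPKM to each value. At the lower limit of 0.25 the count was again 0 of 7 in each vector, against 16.0% of loci with LacZ, 27.0% with HDAC4 wt and 30.8% with HDAC4 3SA. The median absolute log2 ratio of the members was 0.08 with LacZ, 0.10 with HDAC4 wt and 0.11 with HDAC4 3SA, beside 0.09, 0.12 and 0.15 over all those loci.

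**Figure D2:**
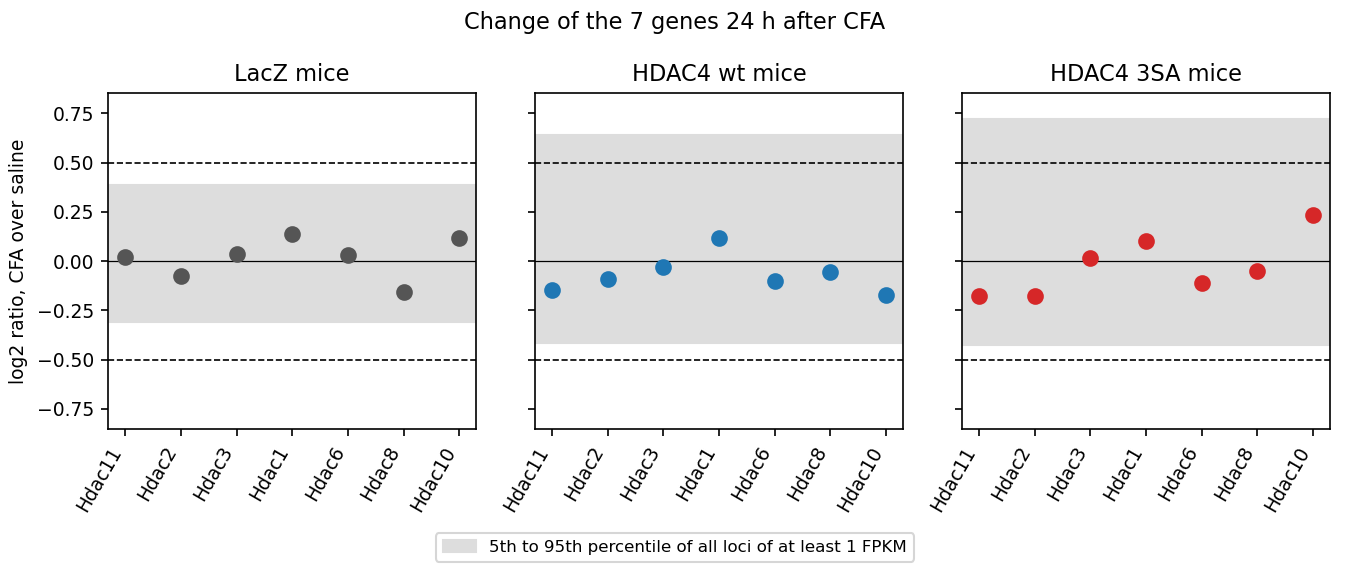
Log2 ratio of FPKM in CFA-treated over saline-treated mice for each member, 1 panel per vector. Dashed lines mark 0.5 in either direction and the grey band spans the 5th to 95th percentile of all loci of at least 1 FPKM, and every point lies inside the dashed lines.

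By member, the log2 ratio of CFA over saline was positive for Hdac1 in every vector, at 0.14 with LacZ, 0.12 with HDAC4 wt and 0.10 with HDAC4 3SA. It was negative for Hdac2 in every vector, at -0.08, -0.09 and -0.17 in the same order of vectors, and for Hdac8, at -0.16, -0.06 and -0.05. These 3 of 7 members had 1 direction in all vectors, a pattern seen for 42.7% of loci with at least 1 FPKM in all groups, so the count is near the background. Hdac3 stayed between -0.03 and 0.04. Hdac11 and Hdac6 had ratios of 0.02 and 0.03 with LacZ, but -0.15 and -0.10 with HDAC4 wt and -0.18 and -0.11 with HDAC4 3SA. Hdac10 varied most, at 0.11 with LacZ, -0.17 with HDAC4 wt and 0.23 with HDAC4 3SA, and also had the lowest level. The plot of log2 ratios by vector shows the 7 members well inside the band of all loci.

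Ratios between members within a group do not depend on the scaling of a table. Hdac1 over Hdac2 was 0.381 after saline and 0.444 after CFA in LacZ mice, 0.488 and 0.563 with HDAC4 wt, and 0.458 and 0.556 with HDAC4 3SA. The ratio was higher after CFA in 3 of 3 vectors, which restates the directions of Hdac1 and Hdac2 given above and is no separate result. Of the 6 ratios computed, Hdac3 over Hdac2, Hdac1 over Hdac3 and Hdac1 over Hdac11 were also higher after CFA in 3 of 3 vectors. Hdac1 over Hdac2 was higher in all groups with HDAC4 than in both LacZ groups. Hdac8 over Hdac6, the X-linked members, ranged from 0.721 to 0.882 and was highest in saline-treated LacZ mice. Hdac10 over Hdac6 ranged from 0.334 to 0.468, with the lowest values in the LacZ groups. The differences between replicates behind these ratios are unknown.

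**Figure D3:**
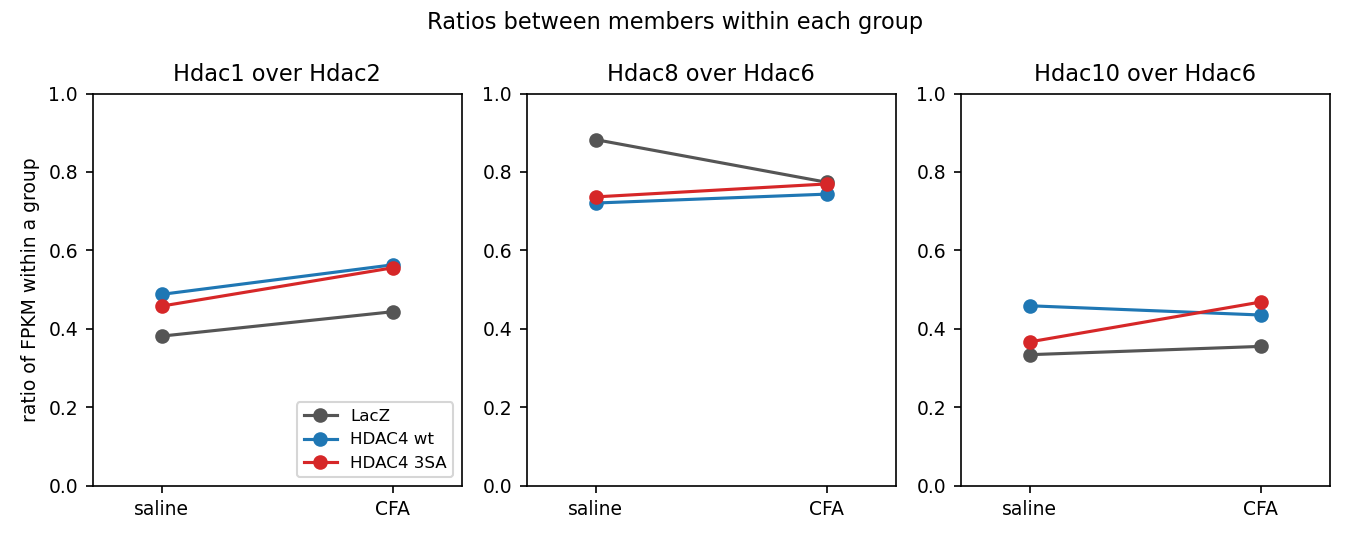
Ratio of FPKM between 2 members within each group (vertical axis, from 0 to 1), with a line from the saline to the CFA group of each vector. Hdac1 over Hdac2 runs from 0.381 to 0.563 and slopes upward in all 3 vectors, while Hdac8 over Hdac6 and Hdac10 over Hdac6 slope in different directions.

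The second comparison set the HDAC4 vectors beside LacZ. Each vector has its own table, and whether the tables were scaled together is not given in the sources used here, so each log2 ratio was centred on the median of the loci with at least 5 FPKM, a shift that rounds to 0.01 or less. In saline-treated mice 0 of 7 members passed 0.5 when HDAC4 wt was set over LacZ, against 20.5% of loci, and 0 of 7 when HDAC4 3SA was, against 16.6%. In CFA-treated mice the counts were again 0 of 7, against 17.6% of loci with HDAC4 wt and 23.5% with HDAC4 3SA. At 0.25, the members past the limit after saline were 3 of 7 for HDAC4 wt (Hdac1, Hdac8 and Hdac10), against 44.1% of loci, and 1 of 7 for HDAC4 3SA (Hdac8), against 35.7%. After CFA they were 1 of 7 for HDAC4 wt (Hdac1), against 43.9%, and 0 of 7 for HDAC4 3SA, against 48.4%. The same LacZ groups serve both HDAC4 vectors, so these values are not independent of each other. The largest single ratio was that of Hdac10 in HDAC4 wt over LacZ after saline, at 0.44, against 0.11 for HDAC4 3SA. Hdac1 was higher with HDAC4 in all 4 comparisons. Its log2 ratios were 0.34 and 0.24 after saline and 0.33 and 0.22 after CFA, for HDAC4 wt and HDAC4 3SA in turn. Hdac8 was lower in all 4, at -0.29 and -0.28 after saline and -0.18 and -0.16 after CFA. Hdac11 was at -0.08 and 0.01 after saline and at -0.23 and -0.18 after CFA. Hdac2, Hdac3 and Hdac6 lay between -0.15 and -0.01 throughout.

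**Figure D4:**
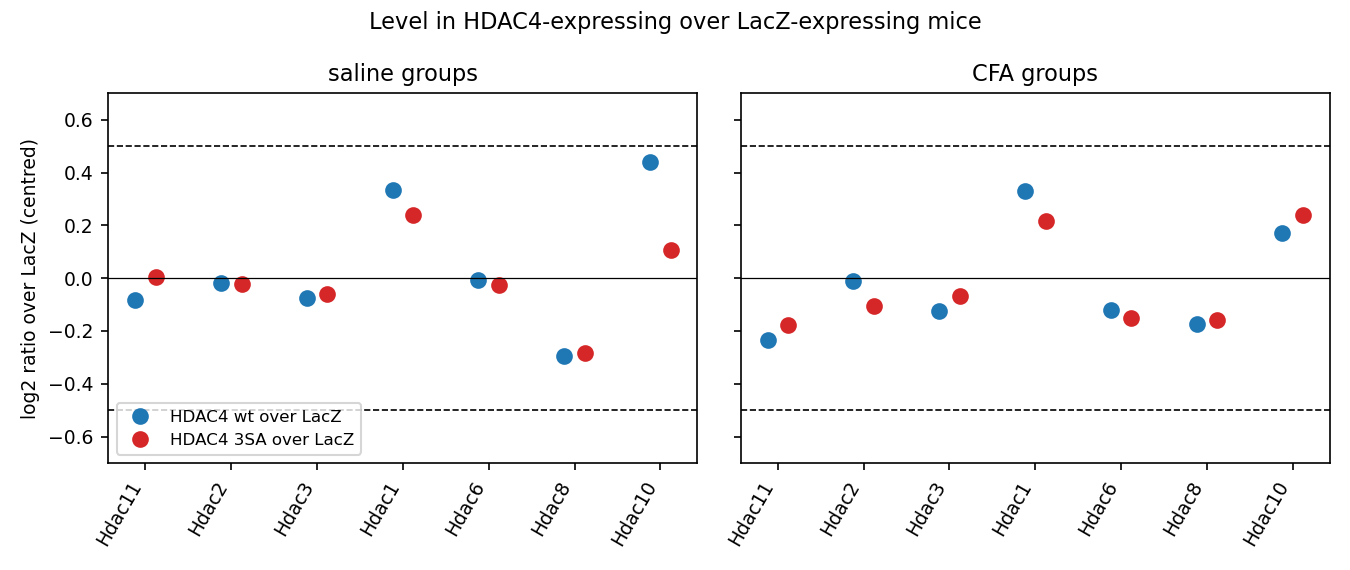
Centred log2 ratio of FPKM with HDAC4 wt (blue) or HDAC4 3SA (red) over LacZ for each member, in saline-treated mice on the left and CFA-treated mice on the right, with dashed lines at 0.5 in either direction. Hdac1 (0.22 to 0.34) and Hdac10 (0.11 to 0.44) lie above 0 and Hdac8 (-0.29 to -0.16) below it in all 4 comparisons.

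Markers of cell types differed between vectors and, within vectors, between CFA and saline. The summed level of 6 microglial markers (among them Csf1r and Aif1) was 113.4 to 116.0 FPKM in the LacZ groups and 310.0 to 509.6 FPKM in those with HDAC4, and none of the 6 was listed at 0. In the HDAC4 over LacZ comparisons 5 or 6 of the 6 passed 0.5, against 16.6% to 23.5% of all loci. The 6 astrocyte markers summed to 879.3 to 891.0 FPKM with LacZ and 1322 to 1644 FPKM with HDAC4, with Gfap at 389.4 to 414.5 against 804.7 to 1094 FPKM. Gfap carried most of that difference, since 3 of the 6 astrocyte markers were higher and 3 lower than in LacZ in each of the 4 comparisons. The lower ones were Slc1a2, Gja1 and Slc1a3, and Slc1a3 had 38.4 and 35.9 FPKM with LacZ against 26.7 to 29.3 FPKM with HDAC4. The 6 general neuronal markers, of which Snap25 was the highest, summed to 2439 to 2483 FPKM with LacZ and 1609 to 1856 FPKM with HDAC4. In bulk tissue, fewer cells of a type and less RNA per cell cannot be told apart. The part of these markers in the vector differences of Hdac1, Hdac8, Hdac10 and Hdac11 was not tested. Between saline and CFA, the microglial sum went from 310.0 to 509.6 FPKM with HDAC4 3SA. There 4 of 6 markers passed 0.5, against 12.1% of all loci. With HDAC4 wt the sum went from 375.1 to 437.9 FPKM and 0 markers passed, against 11.4%. Motor neuron markers went from 17.4 to 39.8 FPKM with HDAC4 wt and from 28.5 to 70.7 FPKM with HDAC4 3SA, and Schwann cell markers from 974.3 to 586.5 FPKM with HDAC4 3SA. Their part in the CFA ratios of Hdac2, Hdac6 and Hdac11 in these vectors was not tested. The 4 Y-linked genes measured, Ddx3y and Eif2s3y among them, summed to 42.1 to 49.6 FPKM over the groups, and the part of the sex of the mice in the levels of the X-linked Hdac6 and Hdac8 was not tested.

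A floor of 1 FPKM could not check the dorsal spinal cord label, since the motor neuron genes Chat, Slc5a7 and Prph also passed it. All 10 markers of dorsal horn neurons had at least 1 FPKM in both groups of each CFA comparison. Their sum differed between groups, at 610.9 and 653.6 FPKM in saline- and CFA-treated LacZ mice, 558.9 and 502.8 FPKM with HDAC4 wt, and 522.9 and 410.6 FPKM with HDAC4 3SA. After CFA, 8 of the 10 were below LacZ by more than 0.5 with HDAC4 3SA, against 23.5% of loci in either direction. All 10 were lower after CFA than after saline in that vector, against 48.4% of all loci. Markers of neighbouring tissue were present too and differed between groups. The Schwann cell markers, found in nerve roots, summed to 586.5 to 1100 FPKM, motor neuron markers to 17.4 to 70.7 FPKM and skeletal muscle markers to 0.80 to 47.1 FPKM. Over the groups, the sums were 22.3 to 36.5 FPKM for oligodendrocyte precursors, 51.8 to 71.6 FPKM for endothelial cells, 121.3 to 166.3 FPKM for leptomeningeal fibroblasts and 3.58 to 16.6 FPKM for ependymal cells. Neutrophil markers of LacZ mice summed to 10.5 FPKM with saline and 109.3 FPKM with CFA. The order was the opposite in the other vectors, with 39.4 and 27.7 FPKM for HDAC4 wt and 58.8 and 36.8 FPKM for HDAC4 3SA. In LacZ mice the largest member ratio between the same groups was -0.16, that of Hdac8.

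Hdac4 itself had 7.41 and 7.72 FPKM in saline- and CFA-treated LacZ mice, 10.1 and 10.8 FPKM with HDAC4 wt, and 8.86 and 8.81 FPKM with HDAC4 3SA. Both vectors were above LacZ, by 0.44 and 0.24 on the centred log2 scale after saline, which is in the direction of the labels but within 0.5. How far reads of the viral transcript enter this row is not given in the sources used here. The other class IIa genes were Hdac5 (25.5 to 34.1 FPKM), Hdac7 and Hdac9. Hdac7 passed 0.5 for HDAC4 wt over LacZ after saline (5.84 against 8.61 FPKM, log2 ratio 0.54), as did 20.5% of all loci. It was the single class IIa gene to pass in any of the 7 comparisons. Hdac9 had the largest class IIa ratio for CFA over saline, at -0.33 with HDAC4 3SA (6.49 and 5.13 FPKM). Hdac5 was lower with HDAC4 in all 4 comparisons, from -0.40 to -0.24.

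Corepressor subunits that HDAC1 and HDAC2 join also had few or no genes past 0.5 between saline and CFA, counts near the 5.67% to 12.1% of all loci. Of 10 NuRD subunits found, 0 passed 0.5 in any vector, and the median log2 ratios were 0.02 with LacZ, -0.005 with HDAC4 wt and 0.04 with HDAC4 3SA. Their most abundant members were Rbbp4 (94.0 to 104.8 FPKM), a histone-binding protein, and Chd3 (55.5 to 76.4 FPKM), a chromatin remodeller. Of the 12 Sin3 subunits, led by Sin3b (28.9 to 38.0 FPKM) and Brms1, 1 passed, namely Sap30 with HDAC4 3SA. Sap30, a Sin3-associated protein, was at 4.35 FPKM with saline and 7.16 FPKM with CFA (log2 ratio 0.70). It also passed 0.5 over LacZ in all 4 comparisons, where 16.6% to 23.5% of all loci passed. Its level was 2.77 and 2.89 FPKM in the LacZ groups against 4.35 to 7.16 FPKM with HDAC4. Sap30 moved with the same vectors as the microglial markers, and the part of those cells was not tested. Arid4b, another Sin3 subunit, was lower than in LacZ by more than 0.5 in 3 of the 4 comparisons, from -0.67 to -0.53. The 6 CoREST subunits, with the demethylase gene Kdm1a (16.2 to 17.2 FPKM) and Hmg20b (13.0 to 16.4 FPKM) highest, had 0 past 0.5 in all 7 comparisons.

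For HDAC3, the 5 NCoR complex genes had 0 past 0.5 in all 7 comparisons, which in so short a list is near the 5.67% to 23.5% of all loci, and the corepressor gene Ncor1 was at 22.2 to 25.7 FPKM. For HDAC8, the 10 genes of cohesin and its loaders had 0 past 0.5, beside the same shares of all loci. After CFA, 10 of the 10 were lower with LacZ, 7 with HDAC4 wt and 8 with HDAC4 3SA (median log2 ratios -0.09, -0.03 and -0.08), beside 49.2%, 47.2% and 48.4% of all loci. Rad21 and Stag2, cohesin subunits, were highest, and Smc3, which HDAC8 deacetylates, had 10.2 to 12.1 FPKM.

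Among genes tied to HDAC6, Hsp90aa1 differed most between groups. Hsp90aa1, a chaperone that HDAC6 deacetylates, had 399.5 and 332.6 FPKM in saline- and CFA-treated LacZ mice, 197.3 and 233.3 FPKM with HDAC4 wt, and 107.0 and 288.8 FPKM with HDAC4 3SA. Its log2 ratio of CFA over saline was 1.43 with HDAC4 3SA. Of 9 genes on that list, 7 had at least 1 FPKM, and Hsp90aa1 alone passed 0.5 in a CFA comparison. That count is near the 12.1% of all loci with HDAC4 3SA. Hsp90aa1 was below LacZ by more than 0.5 in 3 of 4 comparisons, from -1.91 to -0.50, where 16.6% to 23.5% of all loci passed over the 4. Hsp90ab1 stayed at 568.8 to 624.4 FPKM. Tuba4a, an alpha-tubulin gene, was lower with HDAC4 wt than with LacZ, at -0.52 after saline and -0.54 after CFA. Tuba1a was listed at only 0.238 to 0.430 FPKM. It is known as an abundant neuronal tubulin, and a value this low can be a failed estimate.

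In the polyamine pathway of HDAC10, 0 of 11 genes passed 0.5 between CFA and saline in any vector. That count is near the 5.67% to 12.1% of all loci. Over LacZ, 16.6% to 23.5% of all loci passed 0.5. Sat1, which acetylates spermidine and spermine, passed over LacZ in all 4 comparisons (40.7 and 41.2 FPKM with LacZ, 66.5 to 90.5 FPKM with HDAC4). Sms, spermine synthase, was lower than in LacZ after CFA, at -0.53 with HDAC4 wt and -0.64 with HDAC4 3SA, and Paox, a polyamine oxidase, was higher with HDAC4 3SA at 0.52. The most abundant genes of the list, Oaz1 and Oaz2, encode inhibitors of ornithine decarboxylase and had 168.8 to 184.7 FPKM and at most 100.4 FPKM. The levels of Sat1 moved with the same vectors as the microglial markers, and the part of those cells was not tested.

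Opposing and neighbouring enzyme families are given next, against the same shares of all loci. Of 10 acetyltransferase genes, led by Kat5 and Kat7 (27.5 to 30.6 and 24.8 to 28.3 FPKM), 0 passed 0.5 in all 7 comparisons, and so did 0 of the 3 BET readers, of which Brd2 was at 55.7 to 63.9 FPKM. Of the 7 sirtuins, 0 passed between CFA and saline. Sirt2, a tubulin deacetylase of oligodendrocytes, was the most abundant at 107.9 to 171.5 FPKM and stood at 0.50 for HDAC4 wt over LacZ after CFA, just past the limit, and Sirt3 was at 31.4 to 40.2 FPKM.

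**Figure D5:**
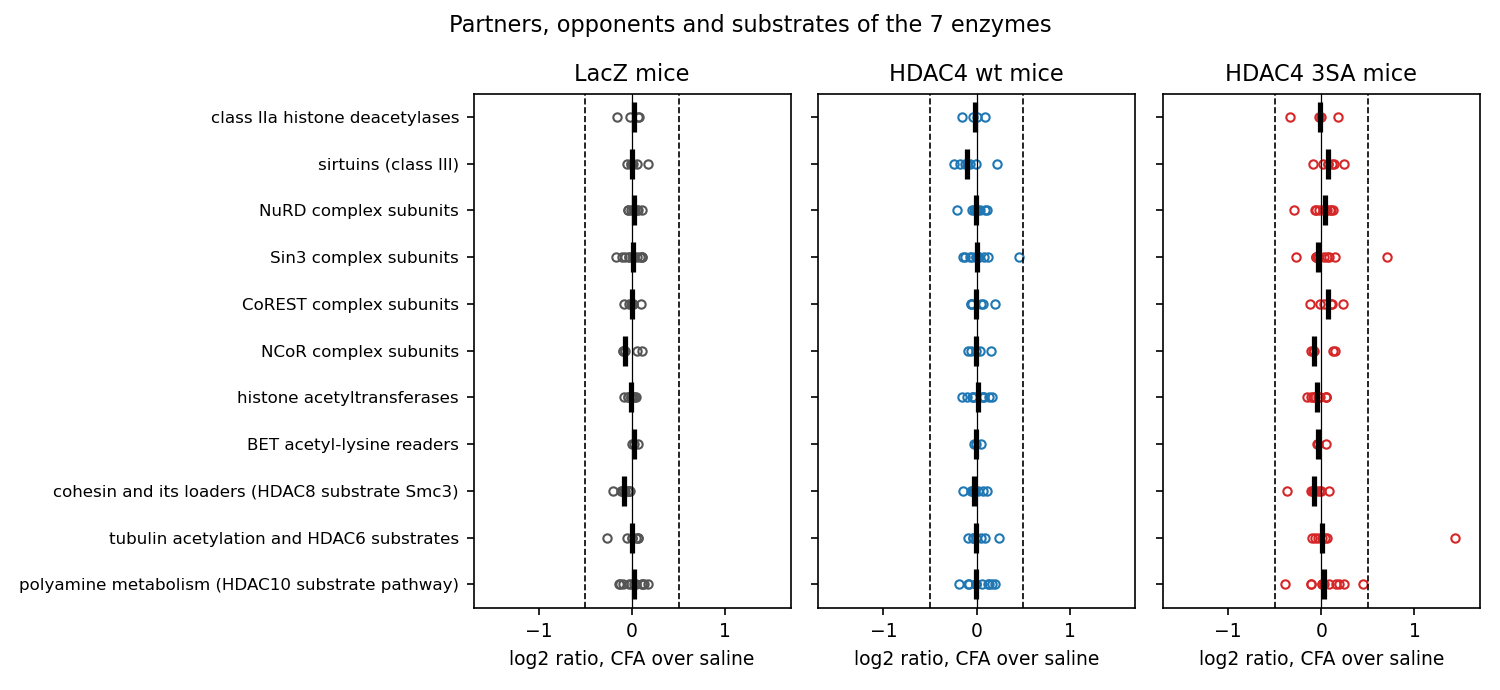
Log2 ratio of CFA over saline (horizontal axis) for genes of 11 related lists, 1 open point per gene with at least 1 FPKM in both groups and a black bar at the median of each list, 1 panel per vector. Dashed lines mark 0.5 in either direction, and the 2 points beyond them are Sap30 at 0.70 and Hsp90aa1 at 1.43, both with HDAC4 3SA.

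Hdac1 had the widest range over groups, and the loci most like it across the 6 values were sought among 9136 single-gene loci with at least 5 FPKM in every group. By Pearson's r of log2 FPKM over the 6 group values, the 3 closest included Pllp (r = 0.999, 70.2 to 104.5 FPKM), which encodes the myelin protein plasmolipin, and Copz2 (r = 0.997, at least 5.99 FPKM), a coatomer subunit. With 6 points that share tables and vectors such values are common, since 1391 loci (15.2%) had r over 0.9, and they are given as a description.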

How the data were processed

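RNA of 18 samples in 6 groups was sequenced, and the authors aligned reads with TopHat and Bowtie to GRCm38 and estimated levels with Cufflinks and Cuffdiff, with Ensembl annotation. They deposited 1 gene table per vector with 1 FPKM value per group, so counts, values per mouse and the depth of each library are not shown. The methods state a minimum read number only. The tables also hold the authors' log2 fold changes, test statistics, p-values and q-values, which were not used.

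Members and lists (25 lists, 159 of 164 genes found) were chosen with earlier results of these data known. The text names all members and class IIa genes and, of each related list, the 2 highest genes and those past the fold; a few such genes, and the oligodendrocyte sum, are not reported here. Smc3, Tuba1a and Aif1 were named after their values were seen. Log2 ratios used a pseudocount of 0.1 FPKM, a limit of 0.5 and loci of at least 1 FPKM in both groups. The script was tested on simulated data. Python 3.11.15, pandas 2.3.3, numpy 2.4.6 and BLAST 2.17.0 were used. Positions are those of GENCODE M21 transcripts, 1-based. Alternatives were a limit of 0.25, other pseudocounts, centring and summed rows.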

Additional observations from a re-analysis of the deposited data

How the results depend on the processing

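No paired analysis was possible because the tables hold 1 value per group, and leaving out each replicate could not be run for the same reason. No limit below speaks to spread between mice. The count of members past the limit was 0 in 28 of 31 alternatives. With a limit of 0.25 in place of 0.5 it was 3 for HDAC4 wt over LacZ after saline (Hdac1, Hdac8, Hdac10), 1 for HDAC4 3SA over LacZ after saline (Hdac8) and 1 for HDAC4 wt over LacZ after CFA (Hdac1), because the limit itself is lower, and 44.1%, 35.7% and 43.9% of all loci passed it in these comparisons. All 168 recomputed log2 ratios of members stayed within 0.1 of the reported value, with 1 change of sign, at a value of 0.004 in size. Part of this was fixed in advance. Summing rows could move only Hdac6, the single member with a second row, and centring moved no ratio by more than 0.0136. Giving the reads of Gm44002 to Hdac11, added after seeing the data, moved its mean share from 66.5% to 70.25%. Over loci of at least 5 FPKM, the share past 0.5 between CFA and saline was 3.69% with LacZ, 7.08% with HDAC4 wt and 8.31% with HDAC4 3SA. Rescaling each group to a common sum multiplies all its genes by the same factor. It could not change the order of members within a group and is no check of that order.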
